A study of Mus musculus with 8 samples.

Results

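The transcription factors NF-kappaB and C/EBP were described here through 9 genes: the subunit genes *Nfkb1*, *Nfkb2*, *Rela* and *Relb*, the inhibitor gene *Nfkbia*, the gene of the atypical inhibitor *Bcl3*, and the C/EBP genes *Cebpa*, *Cebpb* and *Cebpd*. A gene was represented by a probe set whose platform annotation gives its symbol and no other, and 8 of the 9 had such a probe set, 1 each, among the 28853 probe sets of the array. *Nfkb1* was not listed with one and is not analysed here. RNA came from the retinas of C57BL/6J mice raised in dim cyclic light and was hybridised to Mouse Gene 1.0 ST arrays of Affymetrix, whose short probes lie along the exons. The 4 groups came from control mice (normoxia) and hyperoxia-exposed mice, with the retina split into a superior and an inferior part; exposed mice were kept in 75% oxygen from an age of 83 to 90 days for 14 days. Control mice were of equal age at death. Each group had 2 arrays, and each array held the pooled RNA of 2 animals, a male and a female. The labels do not say whether the superior and inferior arrays of a condition came from the same animals. Values are log2 signals, so that a difference of 1 is a change by a factor of 2.

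NF-kappaB factors are dimers of Rel proteins, which wait in the cytoplasm bound to an inhibitor (IkB) until kinases mark the inhibitor for destruction. *Rela* and *Relb* encode subunits that activate transcription, and *Nfkb2* encodes a precursor that is cut to the subunit p52. *Nfkbia* encodes the inhibitor IkB-alpha, itself a target of NF-kappaB, while *Bcl3* encodes a nuclear relative of the inhibitors that joins p50 or p52 dimers on DNA and changes what they do there. C/EBP factors are leucine zipper proteins that act on genes of the acute-phase response, metabolism and myeloid cells. *Cebpd* and *Bcl3* are known as genes that cytokines of the IL-6 family induce through STAT3, and Müller glia of the stressed retina respond to such cytokines.

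These upstream sequences are shown because they belong to NF-kappaB pathway genes that carry a match to the kappaB consensus, the site that Rel dimers bind. After hyperoxia in the inferior retina, *Bcl3* differed by 1.96 on the log2 scale, *Nfkbia* by 0.20 and *Nfkb2* by 0.27. Only *Bcl3* passed the test given below. The sequences come from RefSeq (GRCm38.p6), whose table lists windows of 250 bases before to 50 after a start site for 6 of the 9 genes and none for *Relb*, *Cebpd* or *Nfkb1*. Each stretch runs 5′ to 3′ on the gene's strand from 150 bases before the listed start site to 30 after it, and capitals mark the matches. For *Bcl3* the stretch is chr7:19822726-19822905 on the minus strand, and the match lies from 3 to 12 bases after the start. For *Nfkbia* it is chr12:55492618-55492797 on the minus strand, with a match from -29 to -20. For *Nfkb2*, the first of 3 listed windows is chr19:46304587-46304766 on the plus strand, where overlapping matches run from -39 to -29 and another lies from -11 to -2, and where the capitals near the 5′ end mark a STAT match, TTCNNNGAA, from -148 to -140.
Bcl3: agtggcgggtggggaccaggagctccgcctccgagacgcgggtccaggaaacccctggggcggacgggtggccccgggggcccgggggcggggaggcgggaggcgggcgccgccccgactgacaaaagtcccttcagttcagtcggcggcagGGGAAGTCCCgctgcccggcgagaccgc
Nfkbia: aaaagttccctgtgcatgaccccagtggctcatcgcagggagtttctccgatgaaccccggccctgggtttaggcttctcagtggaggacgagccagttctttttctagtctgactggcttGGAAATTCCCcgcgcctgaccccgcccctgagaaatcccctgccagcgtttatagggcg
Nfkb2: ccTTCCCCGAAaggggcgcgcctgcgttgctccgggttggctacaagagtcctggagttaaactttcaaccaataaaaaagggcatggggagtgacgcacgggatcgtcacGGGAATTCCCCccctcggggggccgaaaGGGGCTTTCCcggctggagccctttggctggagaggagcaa

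The kappaB consensus was searched on both strands and was present in 4.51% of all 32851 windows of the table. Of the 6 genes with a window, 3 held it, namely *Bcl3*, *Nfkbia* and *Nfkb2*, while the windows of *Rela*, *Cebpa* and *Cebpb* did not contain these letters. The shares count single windows, whereas a gene was counted with a match in any of its windows, of which *Nfkb2* had 3. The STAT motif was present in 8.3% of all windows and, among the 6, only in that of *Nfkb2*. The C/EBP motif TTGCNNAA was present in 10.8% of all windows and in those of 0 of the 6 genes. A match of letters is a description and does not show binding.

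The arrays themselves had medians between 6.98 and 7.05. The lowest mean among the 8 measured rod photoreceptor genes was 10.47. Lens RNA was uneven: the linear signal summed over 12 lens genes was 45840 on control inferior replicate 2 and between 1083 and 3177 on the other 7 arrays. Summed over 10 genes of the retinal pigment epithelium, the signal was lowest, at 2689, on control superior replicate 1 and reached 9862 on hyperoxia superior replicate 2. The calls of *Bcl3* and *Cebpd* that use control inferior replicate 2 are therefore also given without it.

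Hyperoxia was followed by higher expression of *Bcl3* and *Cebpd* in the inferior retina, while no other NF-kappaB or C/EBP gene measured passed the test there. *Bcl3* was 3.89 times its control level and *Cebpd* 1.75 times. In the superior retina the same genes had fold changes of 1.48 and 1.28, and neither passed the test. The subunit genes and *Nfkbia* differed from control by less than 0.3 on the log2 scale in both regions. Bulk RNA cannot tell apart a change in the number of cells of a type and a change in RNA per cell.

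In control mice *Bcl3* lay at 6.81 and 6.42 in the superior and at 6.79 and 6.59 in the inferior retina, and after hyperoxia at 7.10 and 7.25 in the superior and at 8.83 and 8.48 in the inferior retina. The 4 control arrays overlapped between regions, both hyperoxia superior arrays lay above all of them, and both hyperoxia inferior arrays lay more than 1 unit higher still. The group means were 6.62 ± 0.27, 6.69 ± 0.14, 7.18 ± 0.11 and 8.65 ± 0.25 (SD, n = 2). The rise after hyperoxia in the inferior retina was 1.96 (SE 0.16, 95% interval 1.59 to 2.33), with an adjusted p of 0.0014 by limma, a linear model that shares information on the spread between probe sets. It ranked 25 among all probe sets by p. Without control inferior replicate 2 the difference was 1.86, with an adjusted p of 0.011. In the superior retina the difference was 0.56 (interval 0.19 to 0.93, adjusted p = 0.723).

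Among control samples the values of *Nfkbia* were 8.91 and 8.87 in the superior and 8.93 and 8.90 in the inferior retina, and those after hyperoxia were 8.93 and 8.86 in the superior and 9.03 and 9.19 in the inferior retina. The first 6 of these arrays spanned less than 0.1, and only the hyperoxia inferior pair stood above them. The difference in the inferior retina was 0.20 (interval -0.01 to 0.40, adjusted p = 0.574), and in the superior retina it was 0.01 (interval -0.20 to 0.21). Thus a change larger than 0.40 lay outside the interval for this inhibitor gene, whereas that of *Bcl3* lay wholly above 1.59.

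**Figure D1:**
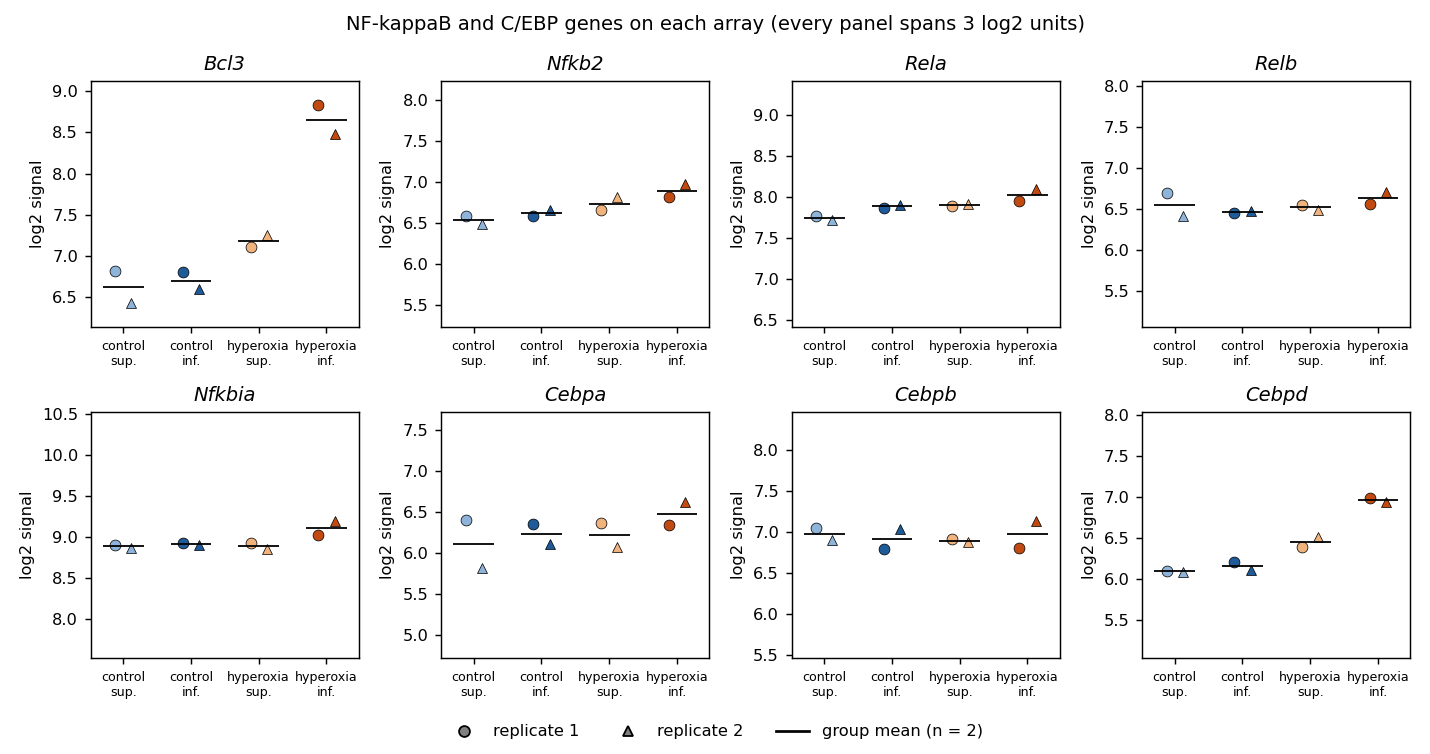
Log2 signal of each gene on each of the 8 arrays, by group, with replicate 1 as circles, replicate 2 as triangles and the group mean as a line; every panel spans 3 log2 units. *Bcl3* and *Cebpd* stand highest on the hyperoxia inferior arrays, at 8.83 and 8.48 and at 6.996 and 6.94.

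Among the Rel subunit genes, *Nfkb2* had the largest difference. Its control signal was 6.58 and 6.49 in the superior and 6.58 and 6.65 in the inferior retina, against 6.65 and 6.81, and 6.81 and 6.97, after hyperoxia. The hyperoxia arrays lay above the control arrays of their own region, by 0.27 in the inferior (interval 0.04 to 0.50, adjusted p = 0.440) and 0.20 in the superior retina (interval -0.03 to 0.43, adjusted p = 0.903). For *Rela* the control values were 7.77 and 7.73 in the superior and 7.87 and 7.91 in the inferior retina, and those after hyperoxia were 7.89 and 7.91 in the superior and 7.96 and 8.11 in the inferior retina. Its difference was 0.14 (interval -0.06 to 0.35, adjusted p = 0.678) in the inferior and 0.15 (interval -0.05 to 0.36, adjusted p = 0.906) in the superior retina. *Relb* lay at 6.70 and 6.41, 6.45 and 6.48, 6.55 and 6.49, and 6.56 and 6.71 in the same order of groups. Its superior groups overlapped, and its differences were 0.17 (interval -0.09 to 0.43) and -0.03 (interval -0.29 to 0.22), neither of which passed the test.

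Of the 3 C/EBP genes, *Cebpd* was the 1 that passed the test in a region. Control values of *Cebpd* were 6.11 and 6.09 in the superior and 6.22 and 6.11 in the inferior retina, and those after hyperoxia were 6.39 and 6.52 in the superior and 6.996 and 6.94 in the inferior retina. Both control inferior values lay just above both control superior values, the hyperoxia superior pair lay above all 4 control values, and the hyperoxia inferior pair lay highest. The group means were 6.10 ± 0.014, 6.16 ± 0.073, 6.46 ± 0.088 and 6.97 ± 0.040 (SD, n = 2). The rise in the inferior retina was 0.80 (SE 0.09, interval 0.60 to 1.01, adjusted p = 0.00812 by limma, rank 48), and the difference in the superior retina was 0.36 (interval 0.15 to 0.56, adjusted p = 0.622). This call rested on few arrays. Without control inferior replicate 2 the inferior difference was 0.75 with an adjusted p of 0.0519, and without hyperoxia inferior replicate 1 or replicate 2 the adjusted p was 0.0706 and 0.0732.

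*Cebpa* had control values of 6.40 and 5.82 in the superior and 6.36 and 6.11 in the inferior retina, and those after hyperoxia were 6.37 and 6.07 in the superior and 6.34 and 6.62 in the inferior retina. Replicates of this gene, which encodes a factor of myeloid and metabolic differentiation, differed by up to 0.58, and its hyperoxia and control arrays overlapped in both regions. Its differences were 0.25 (interval -0.21 to 0.70) and 0.11 (interval -0.35 to 0.56) in the inferior and superior retina. *Cebpb*, which encodes a factor known from the induction of acute-phase genes by IL-6, lay at 7.05 and 6.90, 6.79 and 7.04, 6.92 and 6.87, and 6.81 and 7.14 in the same order. Its differences were 0.06 (interval -0.25 to 0.36, adjusted p = 0.928) and -0.08 (interval -0.38 to 0.23, adjusted p = 0.976). The *Cebpb* interval in the inferior retina ended below the start of the *Cebpd* interval.

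**Figure D2:**
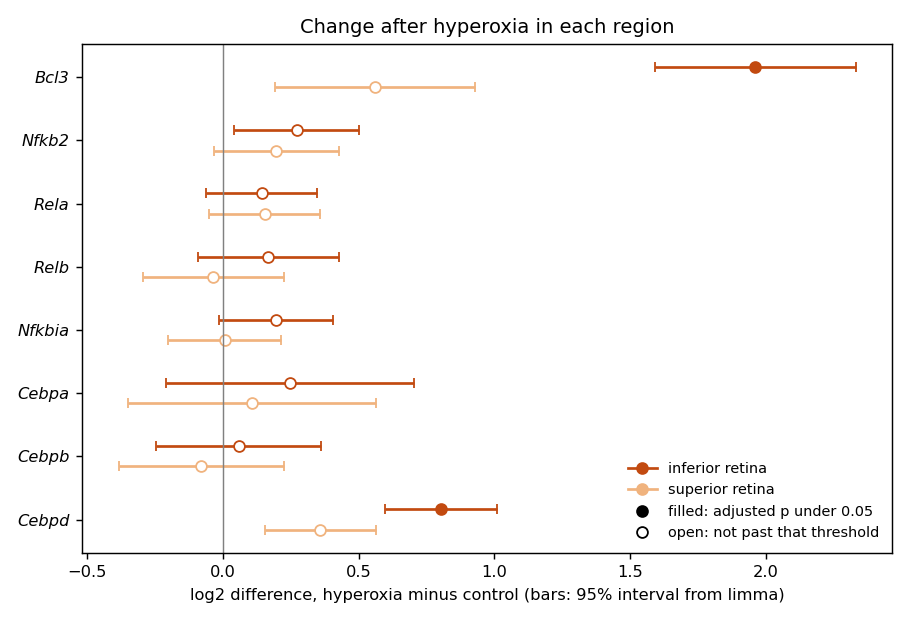
Log2 difference between hyperoxia and control for each gene in the inferior (dark) and superior (light) retina, with 95% intervals from limma and filled points where the adjusted p was under 0.05. Only *Bcl3* (1.96) and *Cebpd* (0.80) in the inferior retina are filled.

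Of the 8 genes tested in the inferior retina, 2 were called, both higher, where 0.492% of all probe sets were called. All 8 differences were positive there, beside 51.6% of all probe sets, and the median was 0.22. The genes were chosen with earlier results of these data known, and *Bcl3* stands in the study's own list. Counts set beside such shares therefore do not measure an enrichment. In the superior retina 0 of 8 were called by limma, beside 0.0173% of all probe sets. There 2 of 8 had an unadjusted p under 0.05, beside 1612 of the 28853 probe sets. Averaged over both regions, *Bcl3* was higher by 1.26 (adjusted p = 0.00258) and *Cebpd* by 0.58 (adjusted p = 0.0069), so that again 2 of 8 were called, beside 0.568% of all probe sets. Without control inferior replicate 2 these differences were 1.21 (adjusted p = 0.00912) and 0.56 (adjusted p = 0.0242), and both were still called. *Nfkb2* (0.23, adjusted p = 0.341) and *Rela* (0.15, adjusted p = 0.539) came next by p and did not pass. In the mean of both regions the *Cebpd* call was lost without control superior replicate 2, at 0.58 with an adjusted p of 0.0516.

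Counted without a test, both hyperoxia arrays lay above both control arrays for 6 of 8 genes in the inferior retina, beside 20.5% of all probe sets, and for 4 of 8 in the superior retina, beside 18.7%. The hyperoxia inferior group had the highest mean of the 4 groups for 7 of 8 genes, all but *Cebpb*, beside 28.3% of all probe sets. Both hyperoxia inferior arrays lay above the other 6 arrays for *Bcl3*, *Rela*, *Nfkbia* and *Cebpd*, 4 of 8, beside 6.95%. The means rose in the order control superior, control inferior, hyperoxia superior, hyperoxia inferior for *Bcl3*, *Nfkb2*, *Rela* and *Cebpd*. These were also 4 of 8, beside 5.59% of all probe sets. None of these patterns was a planned comparison, and the genes were chosen with earlier results of these data known. The 4 genes followed one another over the arrays (r of 0.771 to 0.982 between pairs), so that they are not separate evidence. In that order the 2 control groups did not differ by the test for any of these 4 genes, nor did the hyperoxia groups for *Nfkb2*, *Rela* and *Cebpd*, and control inferior was not tested against hyperoxia superior.

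The regions were compared within each condition. In control retinas 0 of 8 genes differed between the inferior and the superior retina by limma, and 0% of all probe sets passed the adjusted threshold. Of the 8 genes, 0 had an unadjusted p under 0.05, beside 1529 of the 28853 probe sets. The control difference was 0.08 (interval -0.29 to 0.45) for *Bcl3* and 0.07 (interval -0.14 to 0.27) for *Cebpd*, and the largest was that of *Rela* at 0.14 (interval -0.06 to 0.35, adjusted p = 0.947). After hyperoxia the inferior level of *Bcl3* was 2.79 times the superior level, a log2 difference of 1.48 (interval 1.11 to 1.85, adjusted p = 0.0204), and was the 1 gene of 8 called, where 0.139% of all probe sets were. That call was lost when any 1 of the 4 hyperoxia arrays was left out, with differences of 1.30 to 1.66 and adjusted p of 0.0889 to 0.152. *Cebpd* was higher by 0.51 (interval 0.31 to 0.72) with an adjusted p of 0.139, and *Nfkbia* by 0.21 (interval 0.00 to 0.42) with an adjusted p of 0.586. This comparison shares its arrays with those of hyperoxia against control, so that the values are not separate evidence.

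Whether the change after hyperoxia itself differed between the regions was tested as an interaction. For *Bcl3* the change was larger in the inferior retina by 1.40 (interval 0.88 to 1.92), and it did not pass after adjustment (adjusted p = 0.307). The *Cebpd* difference was 0.45 (interval 0.15 to 0.74, adjusted p = 0.678). The other 6 genes had differences of -0.01 to 0.20, with adjusted p of 0.869 to 0.995. Thus 0 of 8 genes were called by limma, beside 0.00347% of all probe sets. Of the 8 genes, 2 had an unadjusted p under 0.05, beside 1744 of the 28853 probe sets. *Bcl3* is among the genes that the study itself listed for a regional difference on these arrays, which is no independent support for it. That list took p under 0.05, with no adjustment stated, and a fold margin (inferior minus superior fold ratio) beyond 0.5 in size. The fold margin was 2.42 for *Bcl3* and 0.46 for *Cebpd*. Their unadjusted p was 0.00846 and 0.0067 by an interaction contrast that shares no information on spread between probe sets. The study also measured *Bcl3* by quantitative PCR on biological replicates and reported the same direction, with a stronger fold margin.

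The other genes of the NF-kappaB pathway were counted from lists, with a median over all probe sets of 0.01 after hyperoxia in the inferior retina. None of 7 other subunit and IkB genes passed, and their median was 0.00. Among them *Nfkbie*, which encodes IkB-epsilon, differed by 0.19 and *Rel*, which encodes the subunit c-Rel, by -0.07. Of 19 measured kinase and adaptor genes 0 passed (median -0.01). Largest there were *Myd88*, the adaptor of Toll-like and IL-1 receptors, at 0.59 (adjusted p = 0.0985) and its companion *Tirap* at 0.35 (adjusted p = 0.412). Of 12 negative regulators 0 passed (median 0.05), with *Usp18*, a protease that removes ISG15, at 0.66 (adjusted p = 0.0714) and *Tnip2*, which binds A20, at 0.43 (adjusted p = 0.228). Of 22 measured ligand and receptor genes 0 passed in the inferior retina (median 0.16). *Tnfrsf1a*, the main receptor of TNF, was at 0.68 there (adjusted p = 0.0637) and at 0.62 in the superior retina, and it passed in the mean of both regions at 0.65 (adjusted p = 0.0155), a call lost without control superior replicate 1 or 2, hyperoxia superior replicate 2 or hyperoxia inferior replicate 2.

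Of 28 NF-kappaB target genes, 2 rose in the inferior retina and 0 fell (median 0.12). *Gadd45b*, a stress gene that restrains JNK signalling, lay between 8.06 and 8.53 in control samples and, after hyperoxia, at 8.77 and 8.92 in the superior and 9.81 and 9.92 in the inferior retina. It rose by 1.45 in the inferior retina (adjusted p = 0.00114), differed by 0.73 in the superior retina (adjusted p = 0.245), and its regional difference after hyperoxia was 1.02 (adjusted p = 0.0204), a call lost without any 1 of the hyperoxia or control superior arrays. *Ccl3*, a chemokine of macrophages, rose by 1.30 in the inferior retina (adjusted p = 0.0203) and differed by 0.09 in the superior retina. The inferior count of 2 was 1 without control superior replicate 1, control superior replicate 2 or hyperoxia inferior replicate 2, and in the superior retina 0 of the 28 passed by limma.

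Genes that act with the C/EBP factors gave 0 calls of 10 in the inferior retina (median 0.14), with *Trib1*, whose product directs C/EBP-alpha to degradation, at 0.23 and *Ddit3*, which encodes the C/EBP family member CHOP, at 0.19. Of 19 measured C/EBP and acute-phase target genes 8 rose and 0 fell in the inferior retina, where 0.492% of all probe sets were called. Their median was 0.65. This list, like the others, was chosen with earlier results of these data known. Its genes *Lcn2*, *C3*, *Mt1*, *Mt2*, *Timp1* and *Csf1r* stand in the study's list of regional differences on these arrays. The count and the median are therefore no independent evidence. The protease inhibitor gene *A2m* rose by 1.88 (adjusted p = 0.00722) and *Serpina3n*, one of a cluster of closely similar genes whose probes may share signal, by 1.78 (adjusted p = 0.0356). *Timp1*, an inhibitor of metalloproteinases, rose by 1.46 (adjusted p = 0.00114). *Mt2*, a metallothionein, rose by 1.27 (adjusted p = 0.00929). *Csf1r*, the CSF1 receptor of microglia and macrophages, rose by 1.25 (adjusted p = 0.000759) and also stands on the list of microglia markers. The superior differences of these 5 genes, in that order, were 1.21, 1.71, 0.18, 0.48 and 0.49, and 0 of the 19 passed there by limma. The inferior count of 8 was 3 without either hyperoxia inferior replicate 1 or replicate 2, and it was 5 or 7 when the first or the second control inferior array was left out.

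Of 15 measured genes of the IL-6 receptor and STAT3 arm, 3 rose in the inferior retina and 0 fell, while the median was 0.01. *Stat3*, the transcription factor that the receptors of this family activate, lay between 8.98 and 9.09 in control samples and, after hyperoxia, at 9.54 and 9.56 in the superior and 10.35 and 10.23 in the inferior retina. It rose by 1.26 (adjusted p = 0.000932). *Osmr*, a receptor subunit for oncostatin M, rose by 1.43 in the inferior retina (adjusted p = 0.00082) and by 0.93 in the superior retina (adjusted p = 0.0457), the 1 call of the superior retina in these pathway lists, which was lost when any 1 of the 8 arrays was left out. *Socs3*, a feedback inhibitor of this receptor family, rose by 1.09 in the inferior retina (adjusted p = 0.00833) and differed by 0.17 in the superior retina. *Gadd45b*, *Ccl3*, *Timp1*, *Mt2*, *Csf1r*, *Osmr*, *Stat3* and *Socs3*, like *Bcl3*, are named in the study's own gene tables. Those tables were drawn from these arrays, so that the listing is no independent evidence of direction. For *Bcl3* and *Gadd45b* the study also reported the same direction by quantitative PCR.

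**Figure D3:**
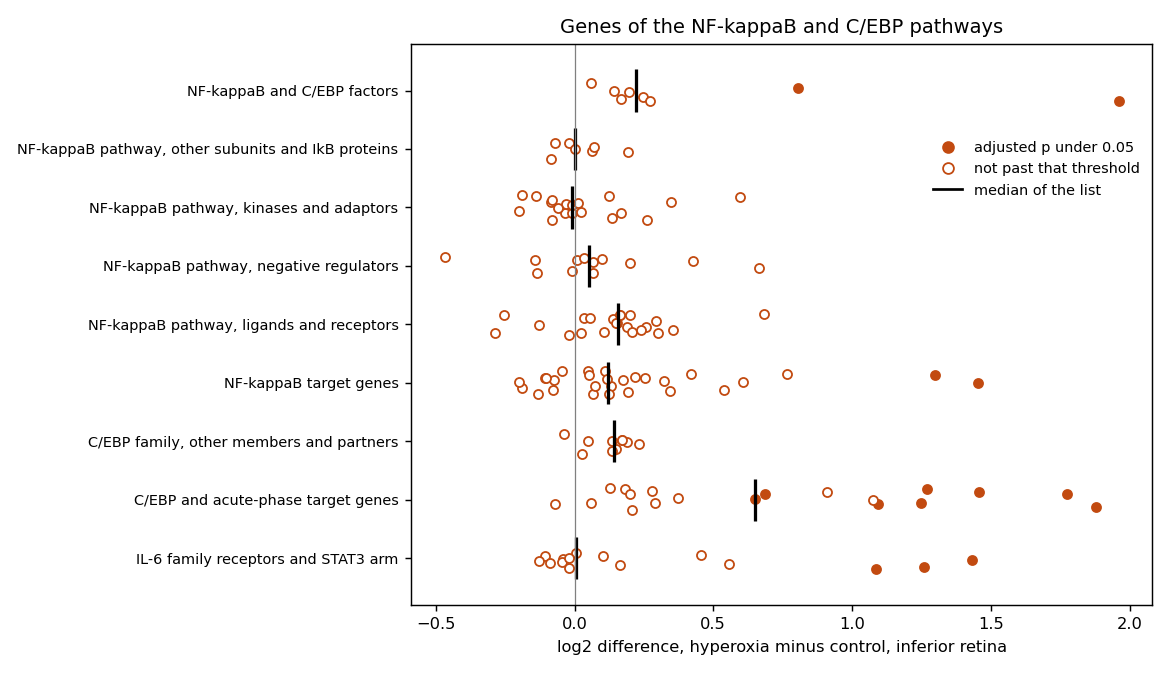
Log2 difference between hyperoxia and control in the inferior retina for each measured gene of the lists, with 1 row a list, filled points where the adjusted p was under 0.05 and a bar at the median of each list. Among these pathway lists the C/EBP and acute-phase targets have the highest median, 0.65, with 8 filled points of 19, while the other subunits, the kinases, the negative regulators, the ligands and receptors, and the other C/EBP members and partners have none filled. The lists were chosen with earlier results of these data known.

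The genes whose log2 signal followed each factor most closely over the 8 arrays were taken from 13892 genes. For *Cebpd* they were *Stat3* (Pearson r = 0.994), *Gadd45b* (0.991) and *Lrrc2* (0.991), a gene of a leucine-rich repeat protein. For *Bcl3* they were *Map3k1*, a MAP kinase kinase kinase (0.991), *Lrrc2* (0.989) and *Cp*, the copper-carrying ferroxidase ceruloplasmin (0.987). *Lrrc2* thus stood in both lists, and *Bcl3* and *Cebpd* followed each other with r = 0.982. For *Nfkb2* the closest were *Clu* (0.991), *Tnfrsf1a* (0.975) and *Lgals3bp* (0.974), and for *Rela* they were *Eif2ak2* (0.974), *Glis2* (0.973) and *Lpcat3* (0.973). The subunit genes *Nfkb2* and *Rela* had r = 0.929 with each other, whereas *Cebpb* and *Cebpd* had r = 0.000226. The closest gene was *Nkx6-2* for *Relb* (0.990), *Emc4* for *Nfkbia* (0.978), *Gchfr* for *Cebpa* (0.956) and *Gm5124* for *Cebpb* (0.980). These values describe 8 arrays that share 4 groups, and for *Relb*, *Cebpa* and *Cebpb*, whose widest gap between replicates exceeded that between group means, they also follow differences between replicates. The highest of many genes is high by selection.

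**Figure D4:**
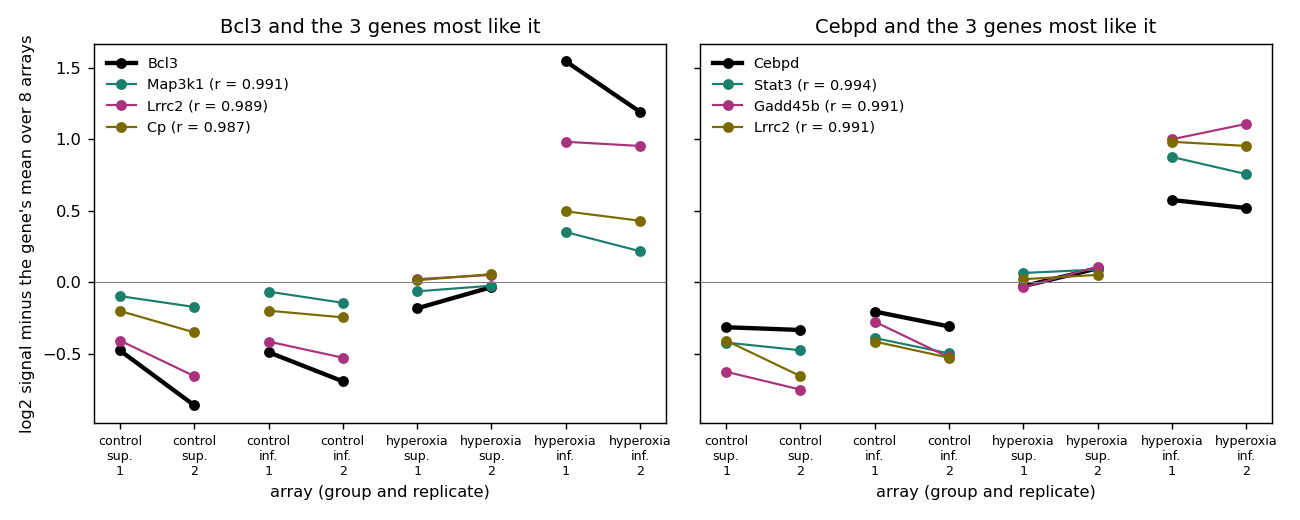
Log2 signal minus the gene's own mean over the 8 arrays for *Bcl3* (left) and *Cebpd* (right), each in black with the 3 genes of highest Pearson r; lines join the 2 replicates of a group. All curves are highest on the hyperoxia inferior arrays, and the inferior change of *Map3k1*, 0.39, is smaller than the 1.96 of *Bcl3*.

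Genes of other cell types moved with the same groups. Of 16 marker genes of microglia and macrophages, 13 rose in the inferior retina (median 1.44), 1 rose in the superior retina (median 0.51), and 11 differed between regions after hyperoxia, all higher in the inferior (median 1.01). The inferior count of 13 was 11 to 13 with any 1 array left out, whereas the count of 11 fell to 0 when hyperoxia superior replicate 2 or hyperoxia inferior replicate 2 was left out and to 1 when hyperoxia inferior replicate 1 was. The superior count of 1 was 0 without any 1 of the superior or hyperoxia inferior arrays. Their summed linear signal was 1943 to 2198 in control samples and, after hyperoxia, 2995 and 3067 in the superior and 6011 and 6718 in the inferior retina, the same order of groups as for *Bcl3* and *Cebpd*. All 16 differences were positive in the inferior retina. Among the markers that did not pass there were *P2ry12* and *Tmem119*, which differed by 0.19 and 0.14. Of the 16 markers, *C1qa*, *C1qb*, *C1qc*, *Cd68*, *Ly86*, *Laptm5*, *Ctss*, *Mpeg1*, *Csf1r*, *Tyrobp* and *Fcer1g* stand in the study's list of regional differences. That list was drawn from these arrays, so that the counts of these markers are no independent evidence. Of 12 genes listed for Müller cells and reactive glia, 3 rose in the inferior retina, namely *Edn2* by 2.81, *Gfap* by 2.42 and *Nes* by 0.70. The study cites work that places raised *Edn2* of the damaged retina in photoreceptors, so its rise cannot be assigned to glia. *Edn2* and *Gfap* also stand in the study's list of regional differences. *Glul*, the glutamine synthetase of Müller cells, fell by 0.70. The count of 3 was 2 when any 1 array was left out. The part of these cell types in the changes of *Bcl3* and *Cebpd* was not tested.

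Markers of other blood leukocytes gave 0 calls of 13 in the inferior retina by limma, with a summed signal of 499.3 to 559.9 on the control arrays and 504.5 to 572.3 on the hyperoxia arrays. Rod genes gave 0 calls of 8 (median -0.18). Genes of the retinal pigment epithelium gave 0 calls of 10 in either region, with a median of 1.13 in the superior retina, and lens genes gave 0 of 12, with a median of -1.85 in the inferior retina, where control inferior replicate 2 held most lens signal. Vascular genes gave 0 calls of 11, and among 8 genes of choroid, sclera and connective tissue 1 rose in the inferior retina, *Pcolce* by 0.92, a call that among the array omissions held only without control inferior replicate 2.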

How the data were processed

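The authors corrected the array background by RMA and summarized the probes by median polish on the log2 scale in Partek, whose version is not given in the sources used here. Whether quantile normalization was applied is not stated. The deposited log2 values of 28853 probe sets were used as they are, and the platform annotation gave 1 symbol for 21789 of them, several for 1621 and none for 5443. The members and gene lists were chosen with earlier results of these data known.

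Group means were fitted to all 8 arrays with limma 3.58.1 in R 4.3.3 (4 residual and 4.47 prior degrees of freedom), and the p-values of each of 6 comparisons were adjusted across the full table (Benjamini-Hochberg), with calls made under 0.05. The fit was also run on simulated data, whose outcome is not given here and is no support for the calls. With 2 arrays a group, the p-values reflect no more than the spread among these pooled samples, and the number of arrays limits their precision.

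All 9 members were to be named. Of each pathway list up to 5 genes past the test in any comparison were named, by the size of the inferior change, or the 2 of smallest p where none passed, and for each member the 3 genes of highest Pearson r among genes with a mean of 6 or more, of which the text gives the first for *Relb*, *Nfkbia*, *Cebpa* and *Cebpb*. Marker genes and the genes of single list values were otherwise chosen after their values were seen.

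The fit was repeated after quantile normalization, after centring arrays on their medians, without dim probe sets (mean under 6), with a variance trend, by the methods' t-test (the unmoderated contrast), on only the arrays of a comparison, with the replicate block, with probe sets averaged per gene, and without each array in turn. Counts in lists under these settings, and blocks of equal numbers within a condition, were added after seeing the data.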

Additional observations from a re-analysis of the deposited data

How the results depend on the processing

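The rise of *Bcl3* in the inferior retina passed under 16 of 17 alternatives, with values of 1.78 to 2.14, and that of *Cebpd* under 12 of 17, with values of 0.75 to 0.86. Of the 8 genes, 2 were called in the inferior retina, 0 by the methods' t-test, 1 with only the arrays of the comparison, and 1 to 2 when an array was left out. In the mean of both regions 2 were called, 0 by the methods' t-test and 1 to 2 with an array left out. For inferior against superior after hyperoxia 1 was called, 2 without probe sets of a mean under 6 (*Cebpd* then had an adjusted p of 0.0452), 0 by the methods' t-test, and 0 to 1 with an array left out. The counts of 0 for the superior retina, the control regions and the interaction were 0 under every alternative run. The methods' t-test drops the information on spread shared between probe sets. Its p-values were adjusted here across all probe sets, an adjustment that the study's methods do not state. For the other changes the cause was not tested.

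With the replicate block, which treats equal replicate numbers as pairs, 2 genes were called in the inferior retina, as without it, *Bcl3* with an adjusted p of 0.00209 and *Cebpd* with 0.0205, and it changed no other call of these 8 genes. In the pathway lists it left 0 called in the superior retina, where *Osmr* had been called without it. Deviations from group means in samples with the same number correlated at -0.0213 to 0.144, so the numbers were not taken as pairs. Because the regions of one condition may share animals, fits added after seeing the data took equal numbers within a condition as a random block in all 6 comparisons (consensus correlation 0.0702) and as a fixed block in the comparisons of regions and the interaction. No call of the 8 genes changed: *Bcl3* in the inferior retina had an adjusted p of 0.0014 with the random block, and for inferior against superior after hyperoxia it had 0.0145 with the random and 0.0357 with the fixed block.

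Over all probe sets the inferior count of 142 ranged from 2 to 374, the superior count of 5 from 0 to 21, the count of 164 for both regions from 2 to 291, the control count of 0 from 0 to 53, the count of 40 after hyperoxia from 0 to 84, and the interaction count of 1 from 0 to 30. List counts in the inferior retina ranged from 1 to 9 for the 8 C/EBP and acute-phase targets, 0 to 3 for the 2 NF-kappaB targets and 0 to 4 for the 3 genes of the STAT3 arm.

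Directions turned only for differences that had not passed. *Nfkbia* was at -0.00879 in the superior retina after median centring and at -0.0165 between control regions after quantile normalization. With an array left out, the inferior change of *Cebpb* ranged from -0.11 to 0.22, and the superior changes from -0.18 to 0.11 for *Relb*, -0.0289 to 0.0422 for *Nfkbia* and -0.18 to 0.40 for *Cebpa*. The mean of both regions ranged from -0.00491 to 0.14 for *Relb* and -0.0925 to 0.0713 for *Cebpb*. The control difference between regions ranged from -0.11 to 0.27 for *Bcl3*, -0.23 to 0.0518 for *Relb*, -0.17 to 0.41 for *Cebpa* and -0.18 to 0.0624 for *Cebpb*. The difference after hyperoxia ranged from -0.0865 to 0.24 for *Cebpb*. The interaction ranged from -0.00326 to 0.15 for *Nfkb2*, -0.0851 to 0.063 for *Rela*, -0.15 to 0.43 for *Cebpa* and -0.0265 to 0.30 for *Cebpb*.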
